A study of Mus musculus with 12 samples.

Results

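The effect of SN-38 on gene expression was measured across 12 subcutaneous mouse tumours, with the anti-PD1 antibody state of each tumour held as a covariate. SN-38, the active metabolite of irinotecan, inhibits topoisomerase I. The comparison set the 6 tumours that received SN-38, alone or with the antibody, against the 6 that did not, and so gave 1 estimate of the drug effect for both antibody states. All 12 tumours of the series entered, and 16833 of the 54446 gene identifiers had enough counts to be tested.

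The tumours grew from Sq-1979, a mouse line labelled as squamous cell carcinoma of the head and neck, injected with Matrigel into the back of male C3H/HeN mice aged 6 weeks. The mice received vehicle, anti-PD1 (an antibody raised in rat that blocks PD1, an inhibitory receptor of T cells), SN-38, or anti-PD1 and SN-38 (the combination), with 3 tumours in each of the 4 groups. The series title speaks of SN-38 making anti-PD1 more effective. Doses, schedules and the hour of collection are not given in the sources used here, and the vehicle is not described. The tumours are numbered 1 to 3 in each group without a statement that each came from its own mouse, so the spread that the p-values measure is that between these samples and may in part be technical. The model is a single transplanted line in 1 mouse strain, and the RNA came from the whole tumour, so fewer cells of a type and less RNA per cell cannot be told apart.

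Topoisomerase I relaxes the supercoils that form ahead of moving RNA and DNA polymerases, and SN-38 traps the enzyme on nicked DNA. Cells are known to answer with checkpoint signalling, p53 activation, a block of replication and altered transcription and splicing. The circadian clock is a feedback loop in which Clock and Bmal1 (gene symbol Arntl) activate genes through E-box sequences, and the Per and Cry proteins made from some of those genes repress the activators. Clock output differs with the hour of the day, and glucocorticoids and other systemic signals are known to shift it in peripheral tissues.

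Total counts ran from 21088288 to 28512141 per tumour. Of the 26 squamous epithelium markers, 25 were tested, and Krt5, the basal-layer keratin, ran from 4411 to 8113 CPM (counts scaled by the TMM-normalised library size) over the 12 tumours, and Trp63, the basal-cell factor, from 409.8 to 538 CPM. Krt1, a keratin of differentiating layers, had too few counts to be tested. SN-38 tumour 1 and combination tumour 2 stood apart in markers of neutrophils, so values without this pair are given where it moved a list.

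In the fit over all tumours, 1 gene passed an adjusted p of 0.05, Cry2, which was higher with SN-38. Higher calls thus made up 0.00594% of the genes tested, and the share of lower calls was 0% (smallest adjusted p of a lower gene, 0.17). At an unadjusted p below 0.05, 1664 genes (9.89%) were counted, of which 1149 (6.83%) were higher and 515 (3.06%) lower with SN-38. With DESeq2 the calls numbered 158, of which 130 were higher and 28 lower, and with limma voom 0, with 1613 genes at an unadjusted p below 0.05. The median log2 difference of all genes tested was 0.000952, with 8458 (50.2%) above 0 and 8375 (49.8%) below. Without any overlap between the 6 tumours with SN-38 and the 6 without, 109 genes (0.648%) were higher and 33 (0.196%) lower, 142 (0.844%) in all. Without overlap inside each antibody state, 173 (1.03%) were higher and 78 (0.463%) lower. Taken alone, the comparison of SN-38 with vehicle called 1 gene (0.00594%), Mnt, with 1690 genes (10%) at an unadjusted p below 0.05. That of the combination with anti-PD1 called 0 (0%), with 1340 genes (7.96%) at an unadjusted p below 0.05.

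Cry2, which encodes cryptochrome 2, a repressor of Clock and Bmal1, lies on the minus strand at chr2:92403646-92434043 (GRCm38). Its level was 20.95, 21.4 and 19.6 CPM in vehicle tumours 1 to 3 and 23.6, 25.7 and 25.03 CPM with the antibody alone. With SN-38 it was 33.7, 42.4 and 33.7 CPM, and with the combination 46.8, 34.5 and 37.6 CPM. All 6 tumours with SN-38 stood above all 6 without, and the lowest of them exceeded the highest tumour without the drug by more than the whole range of the latter. Cry2 rose from 22.7 ± 2.41 to 38.1 ± 5.41 CPM (SD, n = 6 each), a log2 difference of 0.75 ± 0.09 (SE) with an adjusted p of 0.0344. The difference was 0.82 without the antibody and 0.68 with it. Across 25 fits with other settings or with tumours left out, the main one included, it lay between 0.68 and 0.83 and passed the threshold in 11. The fits without the call included limma voom (adjusted p = 0.0634), a model of 4 group means (0.0528), a model without the antibody covariate (0.0689), and 9 of the 12 fits that left out 1 tumour (0.0788 to 0.231).

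Cry2 was 1 of 13 clock genes of the repressor arm and E-box-driven output, all of them tested. The list, like the others, was chosen with earlier results of these data known, so its counts are described without a test. Of the 13, 12 were higher with SN-38 and 1, Per1, was lower, with a median log2 difference of 0.54 against 0.000952 over all genes. At an unadjusted p below 0.05, 9 were higher and 1 lower, against 6.83% and 3.06% of all genes. Tumours with SN-38 all stood above those without for 4 (Cry2, Per2, Dbp and Nr1d2), against 0.648% of all genes. The median was 0.77 without the antibody and 0.43 with it. For 5 of the 13 the difference between states had an unadjusted p below 0.05, against 7.63% of all genes. Without SN-38 tumour 1 and combination tumour 2, 11 of 13 were higher and the median was 0.50. With edgeR, Cry2 was the member past the threshold, and DESeq2 also called Per2 (adjusted p = 1.3e-05), Dbp (0.000373), Per3 (0.00159), Nr1d2 (0.0271) and Hlf (0.0476). Unless DESeq2 is named, adjusted p-values and calls below are those of edgeR.

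The sequence upstream of 4 of these genes is shown because the E-box and the D-box, the sites through which the clock loop acts, can be read in it. Each run covers the bases from 250 to 26 before the RefSeq transcript start (GRCm38.p6), on the strand of the gene, and capitals mark the E-box CACGTG, its variant CACGTT (on the other strand AACGTG) and the D-box TTATGTAA. All 4 genes lie on the minus strand, Cry2 at chr2:92434095-92434319, Cry1 at chr10:85185080-85185304, Ciart at chr3:95882254-95882478 and Per3 at chr4:151044691-151044915.
Cry2: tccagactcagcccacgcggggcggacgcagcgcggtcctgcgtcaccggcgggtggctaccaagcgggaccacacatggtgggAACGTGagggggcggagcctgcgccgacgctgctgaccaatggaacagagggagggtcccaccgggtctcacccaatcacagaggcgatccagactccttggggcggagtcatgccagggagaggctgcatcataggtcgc
Cry1: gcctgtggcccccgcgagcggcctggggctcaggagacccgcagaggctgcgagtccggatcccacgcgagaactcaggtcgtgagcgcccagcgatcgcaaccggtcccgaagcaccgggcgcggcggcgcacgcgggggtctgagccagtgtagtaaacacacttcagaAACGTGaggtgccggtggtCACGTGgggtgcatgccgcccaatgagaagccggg
Ciart: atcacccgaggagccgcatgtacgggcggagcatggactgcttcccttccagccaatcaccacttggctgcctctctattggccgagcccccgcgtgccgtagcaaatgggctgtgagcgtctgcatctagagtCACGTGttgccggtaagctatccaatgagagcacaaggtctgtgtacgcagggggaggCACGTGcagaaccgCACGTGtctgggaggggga
Per3: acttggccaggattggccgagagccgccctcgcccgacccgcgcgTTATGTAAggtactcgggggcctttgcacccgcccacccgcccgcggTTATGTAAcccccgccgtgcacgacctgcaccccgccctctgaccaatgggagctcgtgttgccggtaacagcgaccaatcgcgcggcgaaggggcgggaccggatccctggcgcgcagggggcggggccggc
The 250 bases before the start were searched on both strands, and a gene was counted if any of its RefSeq promoters held the motif. CACGTG occurred in 6.86% of 27025 genes and in 5 of the 11 repressor-arm genes matched (Bhlhe41, Ciart, Cry1, Per1 and Tef). The variant CACGTT occurred in 4.5% of genes and in 3 of the 11 (Cry1, Cry2 and Nr1d1). TTATGTAA occurred in 0.98% of genes and in 1 of the 11, Per3, which held 2 copies. Ciart held 3 copies of CACGTG. Of the 6 genes matched from the list of clock activators and Bmal1-phase genes, 0 held any of these motifs. Per2 and Bhlhe40 were not matched.

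Among the Period genes, which encode partners of the cryptochromes, Per2 stood at 14.9, 18.6 and 11.5 CPM in vehicle tumours and 33.3, 39.7 and 46.5 CPM with SN-38. With the antibody alone its level was 23.1, 20.9 and 21.5 CPM, and with the combination 32.1, 47.2 and 29.9 CPM. The groups did not overlap in either antibody state, and the log2 difference was 1.07 ± 0.17 (adjusted p = 0.151). Per3 ran from 26.1 to 40.7 CPM with SN-38 and from 16.5 to 29.3 CPM without, a log2 difference of 0.76 ± 0.15 (adjusted p = 0.197). These ranges overlapped through anti-PD1 tumour 1, at 29.3 CPM, and combination tumour 3, at 26.1 CPM. Per1, the Period gene that glucocorticoids induce, had a negative value. It stood at 239, 206 and 183 CPM with the antibody alone and at 94.02, 121 and 140.4 CPM with the combination, without overlap. Per1 levels without the antibody were 213, 191 and 174 CPM for vehicle and 153, 227 and 143 CPM for SN-38, which overlapped. Its log2 difference was -0.48 ± 0.17 (adjusted p = 0.401). Cry1, the other cryptochrome, had a log2 difference of 0.54 ± 0.15, with 5.78 to 8.98 CPM against 4.11 to 6.27 CPM.

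Dbp, Tef and Hlf encode related activators that bind D-boxes and carry clock output to other genes. Dbp stood at 28.1, 59.5 and 29.7 CPM in vehicle tumours, 99.1, 81.9 and 156 CPM with SN-38, 49.7, 52.4 and 42.4 CPM with the antibody and 86.4, 85.6 and 77.7 CPM with the combination. The lowest tumour with SN-38 exceeded the highest without it, and the log2 difference was 1.16 ± 0.23 (adjusted p = 0.197). Hlf (0.63 ± 0.17) and Tef (0.47 ± 0.13) had the same direction with overlapping tumours. Nr1d1 and Nr1d2 encode the Rev-erb receptors, which repress Arntl. Nr1d2 ran from 125 to 167 CPM with SN-38 and from 98.2 to 122 CPM without (log2 difference 0.33 ± 0.08). For Nr1d1 the log2 difference was 0.78 without the antibody and -0.13 with it, and the adjusted p of the difference between these values was 0.597. Ciart, which encodes a repressor of Clock and Bmal1, had a log2 difference of 0.70 ± 0.21. Bhlhe40 (0.18 ± 0.21) and Bhlhe41 (0.08 ± 0.22), which encode E-box repressors, stood within 1 SE of 0, and the value of Bhlhe41 changed sign without SN-38 tumour 1 and combination tumour 2.

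**Figure D1:**
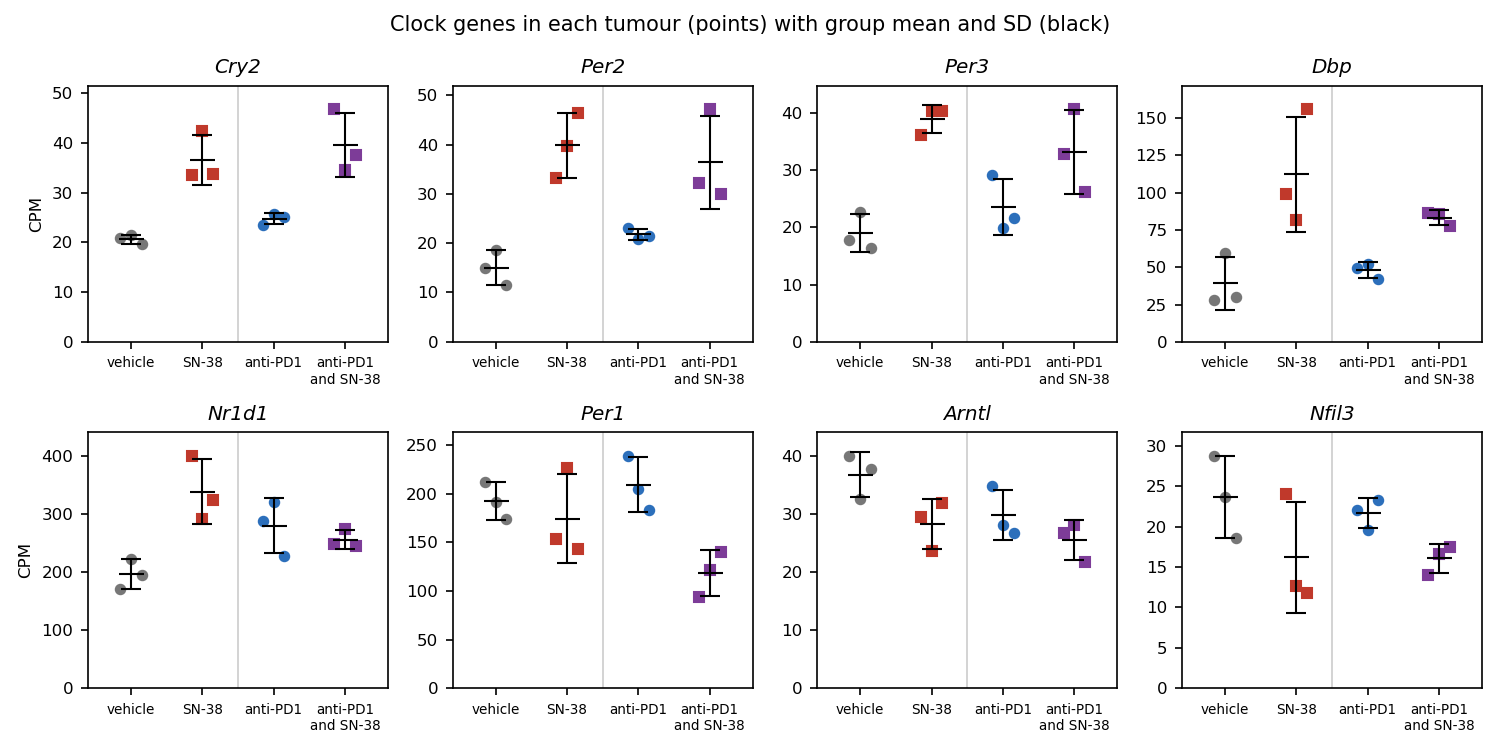
Level of 8 clock genes in each tumour, in CPM on a linear axis from 0, for vehicle, SN-38, anti-PD1 and combination tumours. Points are the 3 tumours of a group and black bars the mean and SD. Cry2, Per2 and Dbp with SN-38 stand above every tumour without it, while Per1, Arntl and Nfil3 have lower means with SN-38.

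The list of clock activators and genes that share the phase of Bmal1 had a smaller median in the other direction. Of the 7 genes listed, all tested, 2 were higher and 5 lower with SN-38, with a median of -0.13. At an unadjusted p below 0.05 there were 1 higher and 3 lower, against 6.83% and 3.06% of all genes. Arntl, which encodes Bmal1, stood at 40.04, 32.6 and 37.8 CPM in vehicle tumours, 29.5, 23.6 and 31.98 CPM with SN-38, 34.8, 28.1 and 26.8 CPM with the antibody and 26.8, 28.1 and 21.7 CPM with the combination. Within each antibody state the mean of Arntl was lower with SN-38, with overlap in the state with the antibody, and the log2 difference was -0.30 ± 0.10 (adjusted p = 0.395). Nfil3, the repressor that competes with Dbp at D-boxes, had a log2 difference of -0.49 ± 0.17 (adjusted p = 0.402). Npas2, a partner of Bmal1, had -1.01 ± 0.43, Clock -0.13 ± 0.10 and Arntl2 0.22 ± 0.09. The hour at which each tumour was collected is not given, so its part in these differences was not tested.

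Several genes of RNA processing had small p-values, none past the threshold with edgeR, while DESeq2 called Snhg17 (adjusted p = 6.59e-07), Clk4 (9.54e-06), Srrm2 (4.06e-05), Clk1 (0.000128), Ccnt2 (0.000357), Srsf11 (0.00136), Ccnl1 (0.00159) and Malat1 (0.00205), among others. Snhg17, the host gene of small nucleolar RNAs, came second over all genes (adjusted p = 0.137). It stood at 43.6, 46.1 and 47.5 CPM in vehicle tumours, 59.9, 60.03 and 57.7 CPM with SN-38, 49.03, 40.6 and 44.2 CPM with the antibody and 58.7, 59.7 and 55.4 CPM with the combination. The groups did not overlap, and the log2 difference of 0.37 ± 0.05 was 0.37 without and 0.38 with the antibody. Clk4 encodes a Cdc2-like kinase, a family unrelated to Clock that phosphorylates the SR splicing factors. Its level was 49.7, 50.2 and 59.4 CPM in vehicle tumours, 71.6, 73.4 and 83.5 CPM with SN-38, 61.01, 51.3 and 56.1 CPM with the antibody and 70.9, 85.97 and 74.2 CPM with the combination. These did not overlap either, and the log2 difference was 0.49 ± 0.07 (adjusted p = 0.151).

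Families of RNA-processing genes, chosen after their values were seen, are described without a test. All 4 Clk genes were higher with SN-38, each at an unadjusted p below 0.05, against 6.83% of all genes. Their median log2 difference was 0.27 (0.27 without and 0.28 with the antibody). Clk1 (0.35 ± 0.06) did not overlap, while Clk2 (0.20) and Clk3 (0.17) did. Cyclins L, T and K are partners of the kinases that phosphorylate splicing factors and RNA polymerase II. All 5 of their genes were higher, and 4 had an unadjusted p below 0.05, against 6.83% of all genes. Ccnl1 ran from 97.3 to 124 CPM with SN-38 and from 82.4 to 92.6 CPM without, and Ccnl2 (0.32) and Ccnt2 (0.20) also did not overlap. Of 6 Luc7-like and Srrm genes tested, 5 were higher, with Srrm2, a scaffold of nuclear speckles, at 599 to 723 CPM against 461 to 549 CPM (log2 difference 0.39 ± 0.07, adjusted p = 0.17). Malat1, the long noncoding RNA of nuclear speckles, ran from 183 to 233 CPM with SN-38 and from 99.1 to 189 CPM without (log2 difference 0.66 ± 0.13). Its ranges overlapped only through anti-PD1 tumour 1, at 189 CPM, and combination tumour 3, at 183 CPM. Without anti-PD1 tumour 1, edgeR called 4 genes, Cry2, Malat1, Snhg17 and Ankrd16, the last at 43.3 to 52.5 CPM with SN-38 and 29.97 to 38.9 CPM without over all 12 tumours (0.45 ± 0.07).

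Larger families of the same machinery stayed closer to 0. The median log2 difference was 0.06 over 10 Srsf splicing factor genes (7 higher), 0.08 over 11 Snhg genes (9 higher) and 0.04 over 20 Hnrnp genes (15 higher). Srsf11 (0.29 ± 0.06) was the Srsf gene without overlap. The genes of cytosolic ribosomal proteins had a median of -0.01 with 32 of 78 higher, a count that was 11 without SN-38 tumour 1, 51 without SN-38 tumour 2 and 6 without SN-38 tumour 1 and combination tumour 2. Among further genes without overlap were Leng8 (0.43), Pnisr (0.34), Snrnp48 (0.31), which encodes a protein of the minor spliceosome, and Prpf4b (0.23), which encodes a splicing kinase.

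**Figure D2:**
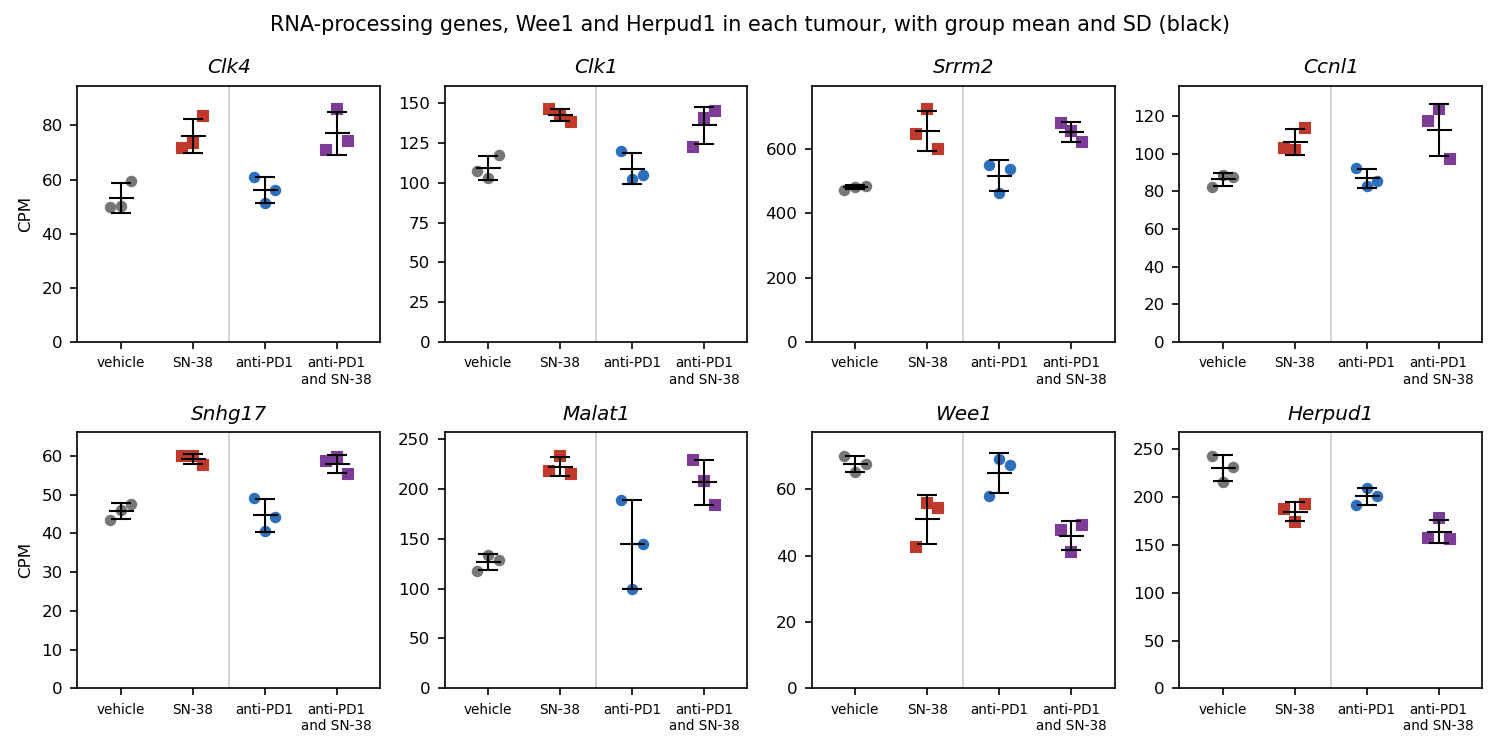
Level of 6 RNA-processing genes, Wee1 and Herpud1 in each tumour, in CPM on a linear axis from 0, by group. Points are the 3 tumours of a group and black bars the mean and SD. Clk4, Clk1, Srrm2, Ccnl1 and Snhg17 with SN-38 stand above every tumour without it, and Wee1 stands below.

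Outside these groups, Spaca6, known from the fusion of sperm and egg, was also among the genes with the smallest p, with 21.5 to 32.9 CPM with SN-38 and 11.4 to 17.9 CPM without. Its groups did not overlap (log2 difference 0.80 ± 0.13, adjusted p = 0.151). Col4a1 and Col4a2, neighbouring genes for the chains of basement membrane collagen IV chosen with their values in view, gave nearly equal values. Col4a1 stood at 184, 205 and 226 CPM in vehicle tumours, 285, 299 and 282 CPM with SN-38, 223, 183 and 222 CPM with the antibody and 301, 552 and 259 CPM with the combination, with combination tumour 2 far above the rest. Its log2 difference was 0.66 ± 0.16 (adjusted p = 0.256), and that of Col4a2 0.66 ± 0.16 (adjusted p = 0.223). The summed level of the 18 endothelial markers ran from 408 to 469 CPM with SN-38 and from 383 to 441 CPM without, and their part in these values was not tested. Mdm4, the p53 inhibitor, also did not overlap (0.27 ± 0.06).

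With edgeR no gene passed the threshold in the lower direction. Of the lower genes named next, DESeq2 called Herpud1 (adjusted p = 4.06e-05), Tent5b (0.000314), Wee1 (0.000373), Spsb1 (0.00152), Tbc1d10a (0.00247) and Jund (0.0201). Of lower genes described further below, it called Tsc22d3 (0.00392), Klf13 (0.00538), Dusp14 (0.0271) and Sesn1 (0.0297). Outside the clock and RNA-processing groups, higher genes called by DESeq2 included Spaca6 (2.33e-05), Mnt (0.00679), Mdm4 (0.009), Col4a2 (0.0134), Col4a1 (0.0217), Il1r2 (0.0324) and Ces2g (0.0372). With edgeR, the smallest p-value in the lower direction belonged to Tent5b, a noncanonical poly(A) polymerase. It had 34.4 to 52.4 CPM with SN-38 and 52.3 to 72.9 CPM without (log2 difference -0.65 ± 0.11, adjusted p = 0.17). The second was Wee1, the kinase that holds Cdk1 inactive before mitosis. Wee1 stood at 70.1, 65.2 and 67.6 CPM in vehicle tumours, 42.5, 55.97 and 54.5 CPM with SN-38, 57.95, 69.2 and 67.4 CPM with the antibody and 47.8, 41.1 and 49.3 CPM with the combination. Every tumour with SN-38 lay below every tumour without it, with a log2 difference of -0.45 ± 0.08 (adjusted p = 0.17). Herpud1, a component of the degradation of misfolded proteins at the endoplasmic reticulum, had -0.31 ± 0.06 (-0.32 without and -0.29 with the antibody). Spsb1, a SOCS-box adaptor of ubiquitin ligases, had -0.64 ± 0.12, and Tbc1d10a, a regulator of Rab GTPases, -0.30 ± 0.06. Jund, a subunit of the AP-1 factor, did not overlap, with 53.2 to 81.8 CPM against 93.7 to 107 CPM (-0.41 ± 0.10).

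The share of genes with a higher mean with SN-38 was unequal between annotation classes, which is described here without a test. Of 14104 protein-coding genes, 48.6% were higher with SN-38 (median log2 difference -0.0053). The share was 67.97% of 462 lincRNAs (median 0.16), 71.6% of 380 antisense transcripts (0.16) and 79.2% of 240 processed transcripts (0.18). Of 280 TEC transcripts, a GENCODE class of unspliced candidates that await experimental support, 85.4% were higher, with a median of 0.40, and 31.8% were higher at an unadjusted p below 0.05, against 6.83% of all genes. Processed pseudogenes had the opposite direction, with 33.5% of 948 higher (median -0.08). Of the 109 genes higher without overlap, 75 were protein-coding, 9 TEC and 9 lincRNA.

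The TEC mean, the average log2 CPM of the 280 transcripts, was -0.39, -0.45 and -0.44 in vehicle tumours and 0.01, -0.02 and -0.05 with SN-38. With the antibody it was -0.10, -0.51 and -0.28, and with the combination -0.0093, 0.11 and -0.14. The groups were apart without the antibody, and overlapped with it through anti-PD1 tumour 1 and combination tumour 3. The class medians were smaller with the antibody than without it, at 0.30 against 0.46 for TEC, 0.09 against 0.20 for lincRNAs and 0.05 against 0.24 for antisense transcripts. These differences between states were not tested. LincRNAs made up 0.464% to 0.531% of all counts in tumours with SN-38 and 0.405% to 0.481% in those without. With no filter on low counts, 65.5% of TEC transcripts and 54.9% of lincRNAs were higher. Many such transcripts lie within or opposite coding genes, and how reads of overlapping genes or of either strand were counted is not given in the sources used here, so values of single members are uncertain.

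**Figure D3:**
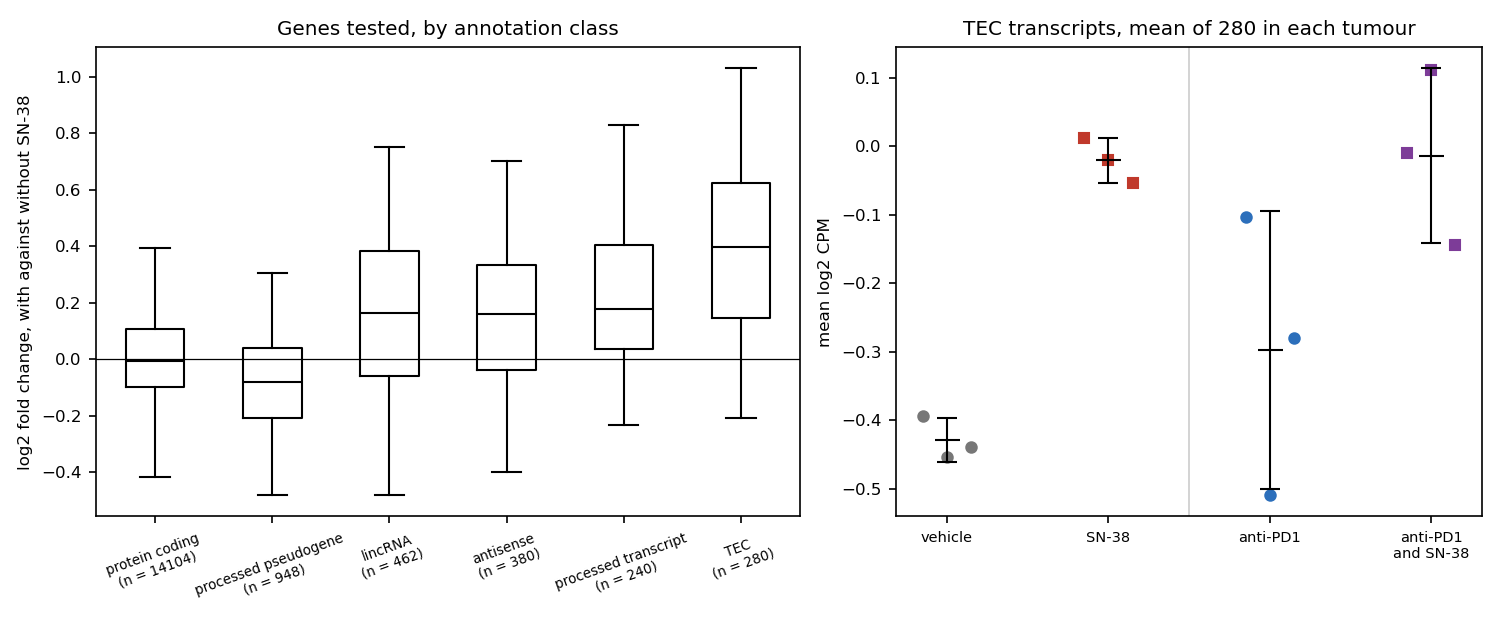
Left, log2 fold change with against without SN-38 for the genes of 6 annotation classes (boxes, quartiles and median; whiskers, 5th to 95th percentile). Right, mean log2 CPM of 280 TEC transcripts in each tumour, with group mean and SD in black. The TEC box lies above 0, and the mean in vehicle tumours lies between -0.45 and -0.39.

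Gene length, of interest because topoisomerase I acts on long transcription units, showed small shifts. Exonic length is the summed length of all annotated exons. The median log2 difference was -0.02 for 5669 genes under 10 kb, -0.0044 for 4948 of 10 to 30 kb, 0.02 for 4261 of 30 to 100 kb, 0.03 for 1575 of 100 to 300 kb and -0.009 for 373 over 300 kb. Without the antibody the 2 longest classes had medians of 0.09 and 0.08, and with it -0.03 and -0.07. Exonic length gave the larger contrast, with 40.9% of the tertile with short exons higher (median -0.04) against 63.1% of the tertile with long exons (median 0.05). The medians without and with the antibody were -0.05 and -0.02 for short exons, and 0.08 and 0.01 for long exons. These tertiles also differed in level, with median log2 CPM of 1.92 for short and 5.32 for long exons, and its part was not tested. Within the class of 30 to 100 kb, the medians were -0.05 for short and 0.05 for long exonic length.

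In the joint fit the drug target had a small value and the p53 targets a small median. Top1, which encodes topoisomerase I, stood at 94.4, 89.7 and 102 CPM in vehicle tumours, 87.6, 93.2 and 97.9 CPM with SN-38, 89.5, 96.8 and 94.9 CPM with the antibody and 87.1, 86.4 and 82.9 CPM with the combination (log2 difference -0.09 ± 0.05, adjusted p = 0.608). Tdp1, which removes trapped topoisomerase from DNA, had -0.17 ± 0.07. Of 26 p53 targets, 18 were higher and 8 lower, with a median of 0.07. At an unadjusted p below 0.05, 4 were higher and 2 lower, against 6.83% and 3.06% of all genes. Without SN-38 tumour 1 and combination tumour 2, 13 of 26 were higher and the median was 0.02, and without combination tumour 2 alone the median was 0.02. The median was 0.04 without the antibody and 0.14 with it. Within these states 2 and 9 of the 26 had an unadjusted p below 0.05, against 10% and 7.96% of all genes. For 6 of the 26 the difference between states had an unadjusted p below 0.05, against 7.63% of all genes. Cdkn1a, the p53-induced cell cycle inhibitor, ran from 40.3 to 101 CPM with SN-38 and from 66.3 to 88.7 CPM without (0.04 ± 0.19). Mdm2, the p53-induced ligase of p53, had 0.26 ± 0.10, and Sesn1, a p53 and FoxO target, -0.66 ± 0.17 (-0.32 without and -0.99 with the antibody). Of 34 checkpoint and repair genes, 24 were higher, with a median of 0.05, from -0.14 without and 0.17 with the antibody. For 13 of the 34 the difference between states had an unadjusted p below 0.05, against 7.63% of all genes, and the number higher was 29 without SN-38 tumour 1 and combination tumour 2 and 16 without anti-PD1 tumour 3 and combination tumour 3. Atr, the kinase that senses stalled replication forks, had 0.21 ± 0.06 (adjusted p = 0.304). Of 12 genes for SN-38 transport and conversion, 10 were higher, with a median of 0.07. Ces2g, a carboxylesterase, had 0.24 ± 0.06, and Abcb1b, a drug efflux pump, 0.37 ± 0.13, and close relatives of both may share reads.

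Several lists had a median near 0 in the joint fit and opposite medians in the 2 antibody states. The 24 genes of G2/M and mitosis had -0.32 without the antibody, 0.33 with it and -0.006 jointly. For 13 of the 24 the difference between states had an unadjusted p below 0.05, against 7.63% of all genes. Mean log2 CPM of the list was 5.98, 6.32 and 6.21 in vehicle tumours, 5.27, 5.88 and 6.21 with SN-38, 5.65, 5.94 and 5.81 with the antibody and 6.33, 6.09 and 6.01 with the combination. SN-38 tumour 1 was the lowest of the 12, and without it alone 23 of the 24 were higher in the joint fit, against 11 with it and 4 without anti-PD1 tumour 1. Every combination tumour lay above every tumour with the antibody alone. Ube2c, which drives the exit from mitosis, had -0.54 without and 0.16 with the antibody, and Mki67, the proliferation marker, -0.10 and 0.39. The 29 genes of DNA replication and G1/S had medians of -0.34 and 0.22, with 4 higher jointly and 25 higher without SN-38 tumour 1.

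Of 34 type I interferon response genes, 33 were lower in the joint fit, at a median of -0.19, and 4 of them had an unadjusted p below 0.05, against 3.06% of all genes. The median was -0.51 without the antibody and 0.04 with it, and 13 genes were lower in both states. Within these states 19 and 0 of the 34 had an unadjusted p below 0.05, against 10% and 7.96% of all genes. For 14 of the 34 the difference between states had an unadjusted p below 0.05, against 7.63% of all genes. The list mean was 7.15, 7.02 and 6.95 log2 CPM in vehicle tumours and 6.52, 6.62 and 6.41 with SN-38, without overlap. With the antibody it was 7.18, 6.76 and 7.46, and with the combination 6.996, 7.08 and 7.56, which overlapped. Isg15, an interferon-induced ubiquitin-like protein, had -0.81 without and 0.07 with the antibody (adjusted p of the difference, 0.597). Ifi27l2a did not overlap between the 6 tumours with and the 6 without SN-38, with 204 to 287 CPM against 293 to 352 CPM (-0.26 ± 0.08). Of 24 interferon-gamma response genes, 21 were lower, 17 in both states, at a median of -0.26. Cxcl10, a chemokine that attracts T cells, had -1.18 and 0.39, and Cd274, which encodes the PD1 ligand, -0.09 and -0.33. Ifi47 had -0.45 ± 0.18 and Tgtp2 -0.37 ± 0.17 jointly, and close relatives of genes in this list may share reads.

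**Figure D4:**
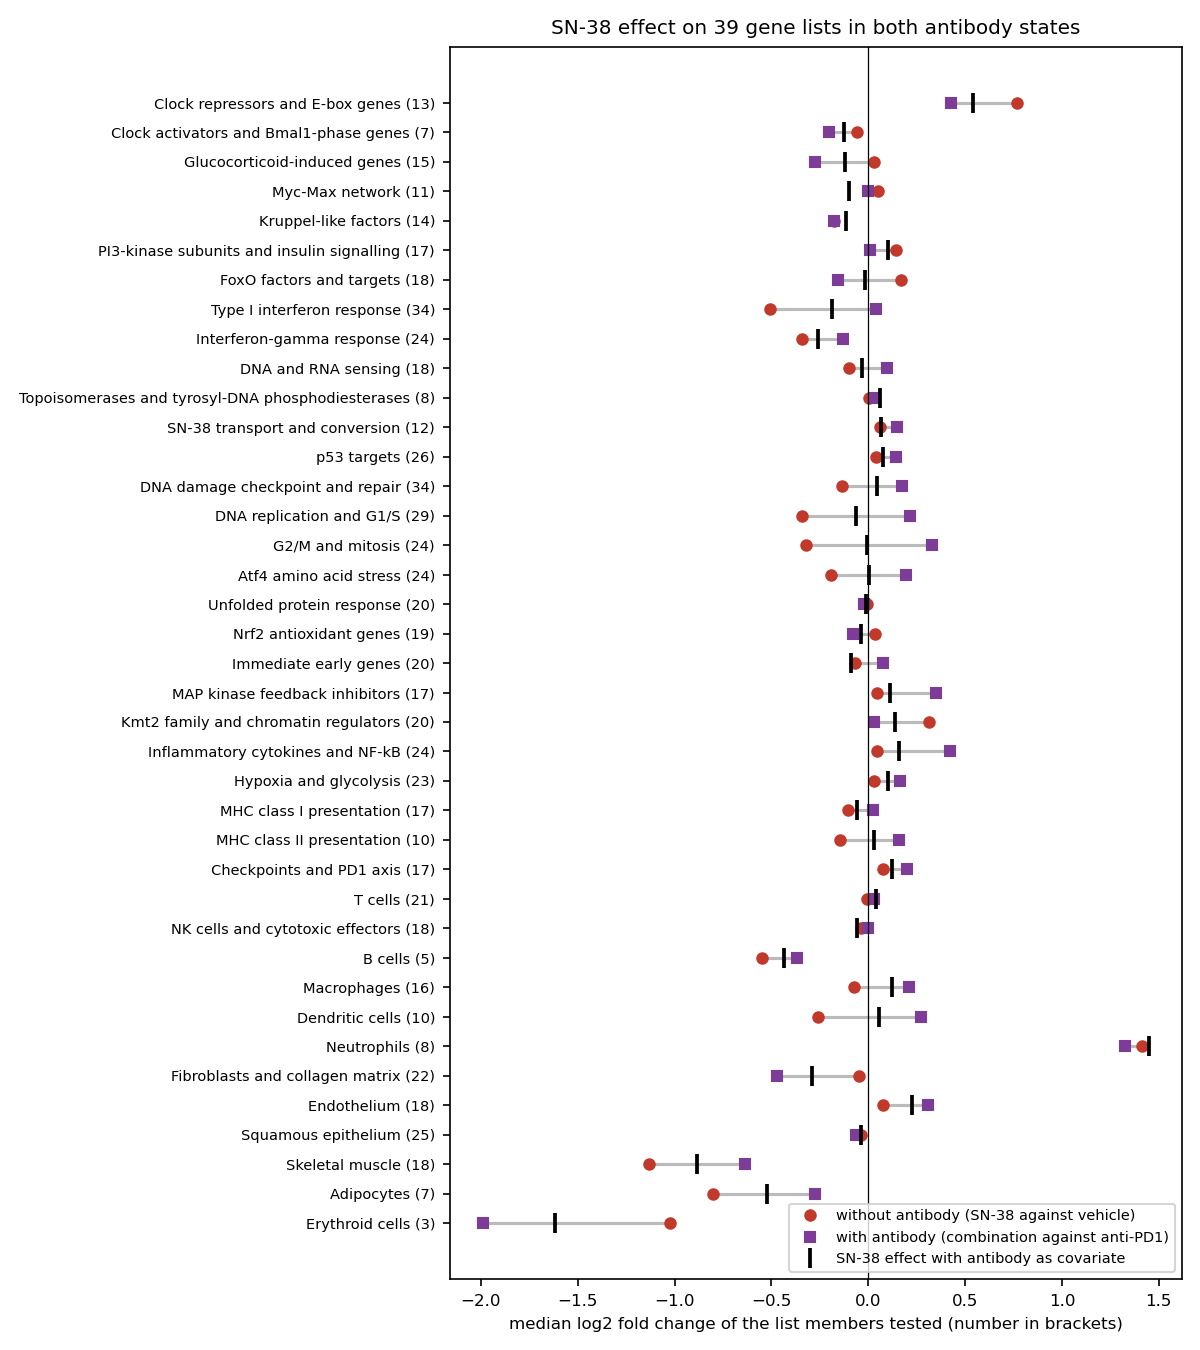
Median log2 fold change of the members tested in each of 39 gene lists, without the antibody (circles), with it (squares) and with the antibody as a covariate (black ticks). Numbers in brackets are the members tested. The clock repressor list lies to the right of 0 in both states, at 0.77 and 0.43, while G2/M lies on either side, at -0.32 and 0.33.

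Some regulators of growth had 1 sign in both antibody states and values of unequal size, a difference that did not pass the threshold for any gene with edgeR. Mnt, a repressor that pairs with Max in place of Myc, stood at 36.4, 35.5 and 33.6 CPM in vehicle tumours, 53.03, 56.2 and 53.7 CPM with SN-38, 43.4, 45.7 and 43.1 CPM with the antibody and 50.8, 45.99 and 50.6 CPM with the combination. Its log2 difference was 0.39 ± 0.08 (adjusted p = 0.198), from 0.63 without and 0.16 with the antibody, and the contrast without the antibody alone passed the threshold (adjusted p = 0.0339). The difference between states had an adjusted p of 0.597. Klf13, a Kruppel-like factor, stood at 285, 257 and 268 CPM in vehicle tumours, 210.4, 219.7 and 239.7 CPM with SN-38, 358, 343 and 296 CPM with the antibody and 186, 127 and 159 CPM with the combination. It did not overlap in either state, with -0.27 without and -1.08 with the antibody (joint adjusted p = 0.219). Of 14 Kruppel-like factors tested, 10 were lower and 4 higher.

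Tsc22d3, a leucine zipper protein that glucocorticoids induce, had -0.52 without and -1.45 with the antibody, with 551, 459 and 410.2 CPM for the antibody alone and 115, 194 and 211 CPM for the combination. Of 15 glucocorticoid-induced genes, 9 were lower and 6 higher, with medians of 0.03 without and -0.27 with the antibody. Of the lower ones 3 had an unadjusted p below 0.05, against 3.06% of all genes. Klf9, another member, had -0.55 ± 0.17 jointly. Dusp14, a phosphatase of MAP kinases, had -0.28 and -0.76.

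Other genes had opposite signs in the 2 states. These genes were named with earlier results of these data known, so their opposite signs are a description and not a test. Pik3r1, the regulatory subunit of PI3-kinase, stood at 245, 185 and 243 CPM in vehicle tumours, 281, 302 and 258 CPM with SN-38, 317, 322 and 263 CPM with the antibody and 168, 180.1 and 172 CPM with the combination. All combination tumours lay below all 9 others, of which vehicle tumour 2 was the nearest. Gclc, the catalytic subunit for glutathione synthesis, had 0.73 without and -0.45 with the antibody, Pik3r1 0.32 and -0.79, and Cblb, whose product tags signalling proteins of T cells for degradation, 0.73 and -0.49. Over all genes, the interaction of SN-38 with the antibody had 0 calls with edgeR (0%, smallest adjusted p 0.313), with 1284 genes (7.63%) at an unadjusted p below 0.05. With limma voom the interaction calls numbered 0, and with DESeq2 24. The effects in the 2 states share no tumour, and over 16833 genes their Pearson correlation was 0.225 and their Spearman correlation 0.136, as a description over genes measured in the same libraries. The sign was shared by 53.9% of the genes, and by 65 and 73 of the 100 genes with the smallest p without and with the antibody.

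Markers of neutrophils had the highest median of the lists with SN-38. Of 12 markers, 8 were tested, and all 8 were higher, with a median log2 difference of 1.45. An unadjusted p below 0.05 was found for 6, against 6.83% of all genes. Ly6g, Retnlg, Camp and Ngp, markers of mature or developing neutrophils, had too few counts to be tested. S100a9, an abundant neutrophil protein, stood at 2.52, 0.627 and 1.62 CPM in vehicle tumours and 4.203, 0.4605 and 2.45 CPM with the antibody. With SN-38 it stood at 45.3, 0.475 and 1.09 CPM, and with the combination at 5.16, 35.3 and 4.01 CPM. SN-38 tumour 1 and combination tumour 2 were picked for their high neutrophil values, so a lower median without them follows from that choice. Without this pair the list median was 0.20, with 7 of 8 higher. Mean log2 CPM of the list was 2.27, 3.63 and 2.54 with the combination and 1.54, 0.73 and 1.97 with the antibody alone, without overlap. With SN-38 it was 4.06, 0.48 and 1.33, and with vehicle 1.56, 0.90 and 1.26, which overlapped. The summed level of the 8 ran from 64.6 to 311.8 CPM with SN-38 and from 72.7 to 116 CPM without. Mmp8, the neutrophil collagenase, had 0.256 to 0.823 CPM against 0.08395 to 0.468 CPM, and Il1r2, the decoy receptor of interleukin 1, 1.58 ± 0.46. The inflammatory list had 15 of 24 genes higher, 7 at an unadjusted p below 0.05, against 6.83% of all genes. Its median was 0.16, or 0.005 without the pair. Cxcl5, a chemokine that attracts neutrophils, stood at 78.3, 3.36 and 9.56 CPM with SN-38 and 12, 7.94 and 4.24 CPM with vehicle, which overlapped. With the combination it stood at 42.4, 25.5 and 11.7 CPM and with the antibody alone at 2.17, 3.15 and 5.86 CPM, without overlap and with the highest value in combination tumour 1.

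Stromal markers also varied between tumours. Of 22 genes of fibroblasts and collagen matrix, 18 were lower, none at an unadjusted p below 0.05, against 3.06% of all genes. Their median was -0.29, or 0.0072 without the pair and -0.64 without SN-38 tumour 2. Of 18 skeletal muscle genes, 17 were lower, 3 at an unadjusted p below 0.05, against 3.06% of all genes. Their median was -0.89, or -0.49 without the pair. Their summed level ran from 38.0 to 312 CPM with SN-38 and from 219 to 583 CPM without. Mb, which encodes myoglobin, had -0.59 ± 0.16 (adjusted p = 0.304). Of 18 endothelial genes, 17 were higher, 2 at an unadjusted p below 0.05, against 6.83% of all genes. Their median was 0.22, or 0.16 without the pair. Cdh5, the cadherin of endothelial junctions, ran from 29.4 to 44.2 CPM with SN-38 and from 22.9 to 32.8 CPM without. The part of these cell types in the results for other genes was not tested beyond the values given without the pair.

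**Figure D5:**
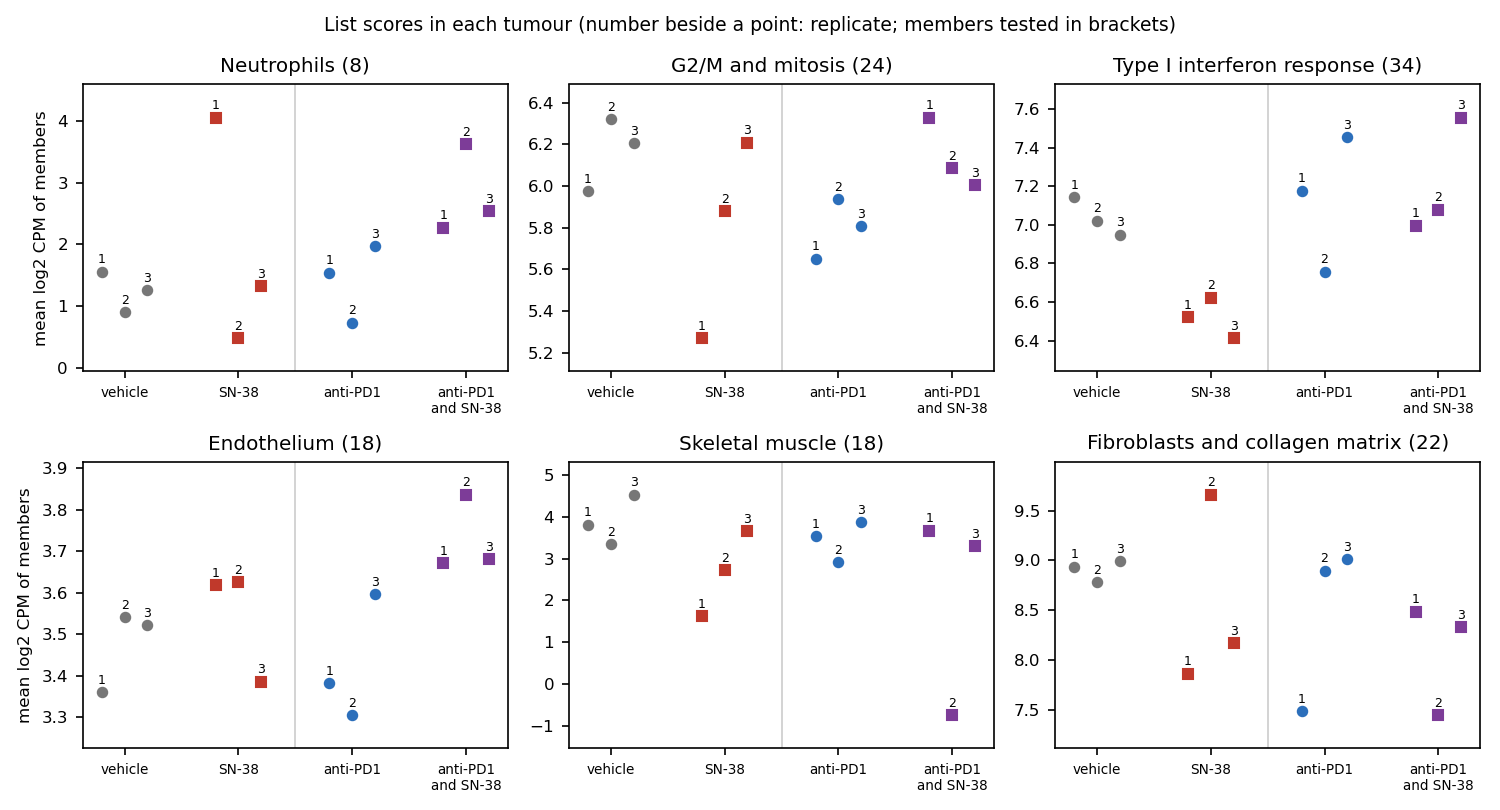
Mean log2 CPM of 6 gene lists in each tumour, with the replicate number beside each point and the number of members tested in brackets. Each panel has its own vertical range. Neutrophil markers are highest in SN-38 tumour 1 and combination tumour 2, and skeletal muscle is lowest in combination tumour 2, at -0.74.

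Markers of T and NK cells, lymphocytes that can carry PD1, had medians near 0. The median was 0.04 over 21 T-cell genes (14 higher) and -0.06 over 18 genes of NK cells and cytotoxic effectors (7 higher). Each list held 0 members at an unadjusted p below 0.05, against 9.89% of all genes. Cd8a, the coreceptor of cytotoxic T cells, ran from 14.6 to 28.8 CPM with SN-38 and from 13.3 to 30.2 CPM without. Pdcd1, which encodes PD1, had 0.04 ± 0.31, and Gzmb, a cytotoxic granule protease, -0.14 ± 0.46. These 3 values changed sign when single tumours were left out. Leaving out combination tumour 3 gave 3 of 21 T-cell genes higher, and leaving out anti-PD1 tumour 3 gave 19. For NK cells and cytotoxic effectors the same fits gave 3 and 15 of 18. Of 5 B-cell genes tested, all were lower (median -0.43), none at an unadjusted p below 0.05, against 3.06% of all genes. Their medians ran from -0.69 to -0.23 on leaving out 1 tumour. Macrophage genes had a median of 0.12 (10 of 16 higher, or 6 without combination tumour 3) and squamous epithelium genes -0.04 (10 of 25 higher).

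Among the remaining lists, 18 of 20 genes of the Kmt2 family and chromatin regulators were higher. Of these, 5 had an unadjusted p below 0.05, against 6.83% of all genes. The list median was 0.14 (0.32 without and 0.03 with the antibody). Kmt2b, a histone H3 lysine methyltransferase, had 0.24 ± 0.07, and Arid1a, a subunit of a chromatin remodeller, 0.21 ± 0.06. Of 23 hypoxia and glycolysis genes, 21 were higher, 0 at an unadjusted p below 0.05, against 6.83% of all genes. Their median was 0.10, and the number higher was 11 without combination tumour 1 and 15 without SN-38 tumour 1 and combination tumour 2. Genes of the unfolded protein response had a median of -0.01 and Nrf2 antioxidant genes -0.04. The 24 genes of Atf4 amino acid stress had 0.0057 jointly, -0.19 without and 0.19 with the antibody, and for 8 of them the difference between states had an unadjusted p below 0.05, against 7.63% of all genes. Egr1, an immediate early factor, had -0.47 ± 0.13. Of 20 immediate early genes 13 were lower, 3 at an unadjusted p below 0.05, against 3.06% of all genes.

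The lists of antigen presentation and of PD1 signalling held 0 members at an unadjusted p below 0.05, against 9.89% of all genes. At that share, few members would be counted in lists of this size. Of 17 genes of MHC class I presentation 12 were lower (median -0.06), of 10 of MHC class II 8 were higher (0.03), and of 17 checkpoint genes 14 were higher (0.12, with 0.08 without and 0.20 with the antibody). Leaving out anti-PD1 tumour 2 gave 0 of 10 MHC class II genes higher, and leaving out combination tumour 3 gave 4 of 17 checkpoint genes higher with a median of -0.11. The sensors of DNA and RNA had 8 of 18 higher (median -0.03). Of 17 feedback inhibitors of MAP kinases 13 were higher (0.11), 2 at an unadjusted p below 0.05, against 6.83% of all genes. Of 17 PI3-kinase and insulin signalling genes 11 were higher (0.10). These medians were 0.04 without combination tumour 2 and 0.02 without combination tumour 3, respectively. Of 18 FoxO factors and targets 11 were lower, with 0.17 without and -0.16 with the antibody. Adipocyte markers (-0.52, 5 of 7 lower) and erythroid markers (-1.62, 3 of 3 lower, with a summed level of 1.097 to 12.96 CPM with SN-38 and 1.57 to 52.13 CPM without) had negative medians. Without vehicle tumour 3 the adipocyte median was -0.013, and without anti-PD1 tumour 1 the erythroid median was -0.48. Of the 10 mitochondrially encoded genes 8 were higher (0.12).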

How the data were processed

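RNA-seq counts per gene were analysed in 12 tumours, 3 in each of 4 groups, with groups and columns taken from the labels. Per the labels' protocols, libraries came from a stranded poly(A) kit. Per the submitters' processing notes, cutadapt 2.4, STAR 2.7.2a and GRCm38 were used. For the program that counted reads, its use of strand and the gene models, the sources used here give nothing. The authors deposited whole-number counts that were not normalized, and 54409 of 54446 identifiers matched GENCODE M21 symbols. Totals per tumour lay between 21088288 and 28512141.

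Genes were filtered with edgeR's filterByExpr, which kept 16833 genes, and scaled with TMM factors (0.970 to 1.026). CPM values use these library sizes. SN-38 was tested with edgeR (version 4.0.16 in R 4.3.3) by its quasi-likelihood F-test, with the antibody as a covariate, 9 residual degrees of freedom and Benjamini-Hochberg adjustment over all genes, at a threshold of 0.05. A model with 4 group means gave the effect in each antibody state and the interaction. The script was tested on simulated data. Lists are described by counts and medians, without a list test. Alternatives included DESeq2 1.42.0 and limma voom (limma 3.58.1), other scalings, filters and designs, and leaving out tumours. No 2 tumours of a group agreed within counting noise (lowest chi-square per degree of freedom, 11.8).

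Genes were named by rule: the 5 smallest p-values in each direction, the 2 smallest in each list, and a short set always given. The members and lists were chosen with earlier results of these data known, and genes outside the rule (RNA-processing families, genes without overlap, annotation classes, other list members) after their values were seen. Promoters came from RefSeq on GRCm38.p6.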

Additional observations from a re-analysis of the deposited data

How the results depend on the processing

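Cry2 was the only gene called with upper-quartile factors, RLE size factors, no filter on low counts, a filter of 1 CPM in 6 tumours, no robust estimation, and without SN-38 tumour 1 and combination tumour 2 together (adjusted p = 0.0401). DESeq2 called 158 genes, 130 higher and 28 lower, of which 78 did not overlap. Over all genes tested, 0.844% did not overlap. Choosing genes by p in the same tumours favours those without overlap, so the 78 are no separate support for the calls. The count was 0 with limma voom, with a mean for each of the 4 groups, without the antibody covariate, and without anti-PD1 tumour 3 and combination tumour 3, with 1613 to 1764 genes at an unadjusted p below 0.05. With 1 tumour left out, 0 to 4 genes were called, all higher. For the interaction, DESeq2 called 24 genes.

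The replicate block left 0 genes called, with 1525 at an unadjusted p below 0.05 (Cry2, adjusted p = 0.186), and 0 interaction calls. Tumours with the same number correlated at -0.471 to 0.631 in their deviations from group means, and 4 of 12 correlated best with their own number, so the numbers were not taken as pairs.

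Some list members changed sign. Cd8a gave -0.00081 with upper-quartile factors, -0.0049 with no filter, -0.016 without the antibody covariate and -0.020 without SN-38 tumour 1 and combination tumour 2. Without that pair, Cdkn1a gave -0.054, Bhlhe41 -0.14 and Col1a1 0.048. Cdkn1a gave -0.0052 with limma voom, and Pdcd1 gave -0.16 without anti-PD1 tumour 3 and combination tumour 3. With 1 tumour left out, ranges were -0.10 to 0.21 for Bhlhe41, -0.31 to 0.16 for Pdcd1, -0.10 to 0.11 for Cd8a, -0.0099 to 0.24 for Cblb, -0.037 to 0.19 for Cdkn1a and -0.56 to 0.15 for Gzmb. Of the medians, 1123 of 1128 list medians and all 120 medians by gene length moved by less than the spread between tumours of a group. That spread was wide, so this count does not show that the medians were stable. The fibroblast median, from -0.64 to 0.0072, and the T-cell median, from -0.29 to 0.23, changed sign within it. By another rule, 95 of 1128 counts of list members higher moved by over 1.5 times. Of the shares higher by annotation class, 26 of 144 moved by more than a binomial interval for the class size.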
